A study of Mus musculus with 7 samples.

Results

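A set of 33 genes of neural stem cells and of regional identity in the brain was followed in mouse oligodendroglia with and without overexpression of the transcription factor Sox9. The members were taken by gene name from a list of radial glia markers (14 genes) and regional patterning factors (19 genes), and all 33 were found among the 49315 genes counted. The control group held 3 libraries of cells labelled Sox9-wt, and the Sox9-tg group held 4 libraries of cells that overexpressed Sox9. According to the series' title, the aim was to find genes that Sox9 targets in NG2 glia soon after birth. For the promoter behind the transgene, the age of the mice, how cells were isolated and how many animals a library holds, no information was given in the sources used here. Libraries are labelled as biological replicates with no animal or culture named. The p-values therefore reflect the spread between these libraries, and part of that spread may be technical.

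Radial glia are the elongated stem cells that line the ventricles of the developing brain and produce neurons first and glia later. They are recognised by intermediate filament and lipid-binding proteins and by nuclear factors that keep them dividing. Patterning factors are transcription factors switched on in blocks of the neural tube, so that a progenitor carries the address of its region: Emx and Lhx2 for the dorsal telencephalon, Otx for forebrain and midbrain, Zic and Msx for the dorsal midline, En and Irx for midbrain and hindbrain. Oligodendrocyte progenitors arise from several of these regions and lower part of this stem cell programme as they become committed. Sox9 itself acts in neural stem cells, where it is needed for the switch from making neurons to making glia.

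Libraries held 15768472 to 30507326 counts. Sox9, the overexpressed gene, was 239, 353 and 293 CPM (counts scaled to a common library size) in control replicates 1 to 3 and 2207, 2741, 3597 and 3115 CPM in Sox9-tg replicates 1 to 4, so every library matched its label. All 10 listed markers of NG2 glia rose in Sox9-tg libraries, against 7.69% of all tested genes. Their summed level was 2273 to 2824 CPM in the control and 7334 to 11400 CPM in Sox9-tg libraries. Sox9-tg replicates 3 and 4 were far more alike than any other pair of a group, with a chi-square of 5.29 per gene against 44.4 to 88.8 for the other pairs. They still differed by more than counting noise, but this cannot show whether they come from separate animals or cultures. They were kept as 2 samples, and counts with both summed as 1 sample are given beside the totals below. Hox genes, which mark hindbrain and spinal cord, were close to absent: the 29 listed Hox genes together had 2 to 14 counts per library and none entered the test.

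Of the 33 members, all of which entered the test, 12 fell and 3 rose with Sox9 overexpression, and 18 did not pass an adjusted p of 0.05 in edgeR's quasi-likelihood test. Among all 16616 genes tested, 5.86% fell, 7.69% rose and 13.5% changed in either direction. In the radial glia class 4 of 14 members fell (Nes, Prom1, Pax6 and Lix1) and 3 rose (Hmga2, Tspan12 and Ddah1). In the patterning class 8 of 19 fell (Emx1, Emx2, Lhx2, Dmrta2, Pou3f1, Pou3f4, Zic2 and Msx1) and none rose. Nes, Prom1, Pax6, Hmga2, Lhx2 and Pou3f1 kept their calls under every one of 16 other settings, and the other 9 calls were lost in at least 1. The number of patterning members that fell was 4, 5 and 3 after leaving out control replicates 1, 2 and 3 in turn. It was 5 and 3 with Sox9-tg replicate 3 or 4 left out, and it was 4 with Sox9-tg replicates 3 and 4 summed as 1 sample. The share of all tested genes that fell was also smaller in these fits, at 3.05%, 4.64% and 2.26% without control replicates 1, 2 and 3, 2.98% and 3.22% without Sox9-tg replicates 3 and 4, and 3.02% with this pair summed. Only Hmga2 of the radial glia class rose when control replicate 1, control replicate 3, Sox9-tg replicate 3 or Sox9-tg replicate 4 was removed, and when the last pair was summed. In RNA from a mixed population, fewer cells of a type and less RNA per cell cannot be told apart. All log2 fold changes are given as Sox9-tg minus control, and a ± sign precedes the SD (n = 3 control and n = 4 Sox9-tg libraries).

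**Figure D1:**
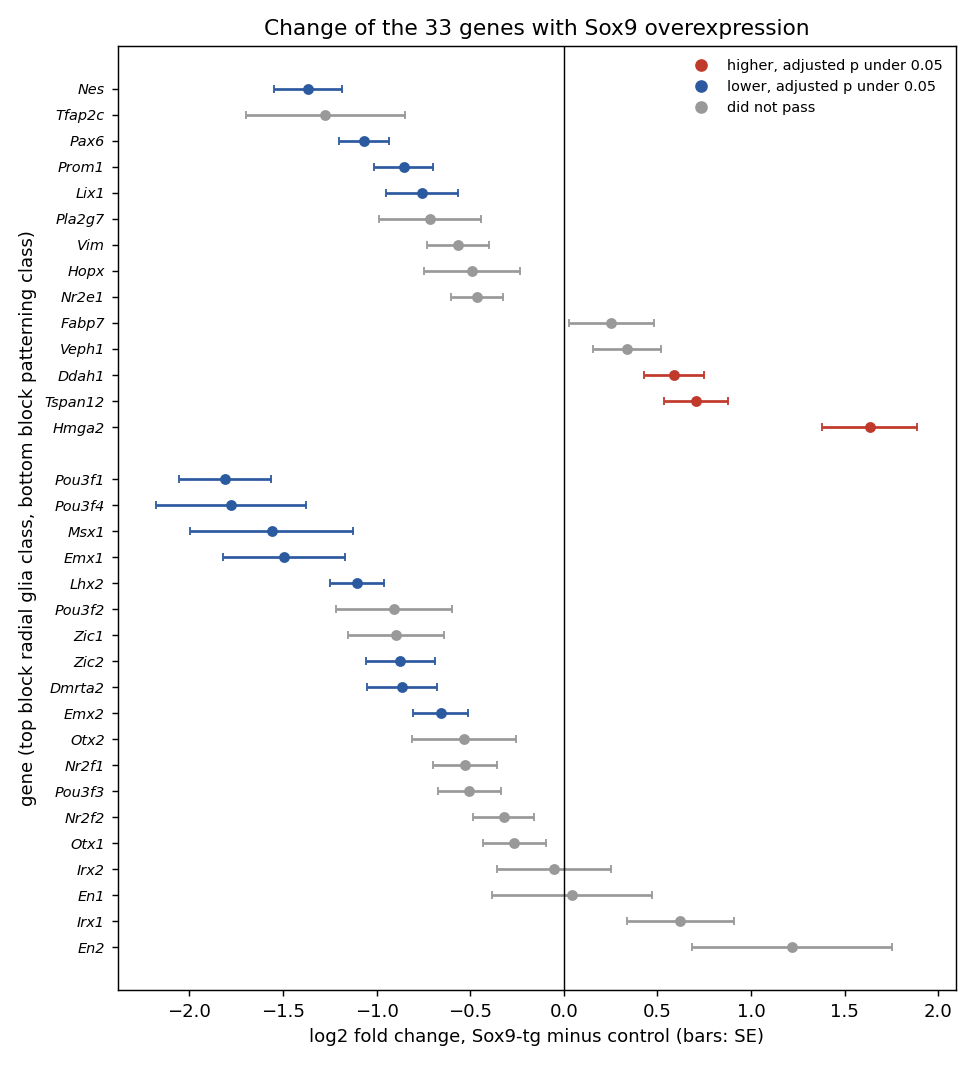
Log2 fold change (Sox9-tg minus control) of each of the 33 genes, with bars for the SE, radial glia class above and patterning class below, blue for genes that fell, red for genes that rose and grey for genes that did not pass. The changes run from -1.81 for Pou3f1 to 1.63 for Hmga2, and every coloured point of the patterning class lies below 0.

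Among the structural genes of radial glia, the stem cell filament changed and the lipid carrier did not pass the test. Nes encodes nestin, the intermediate filament by which neural stem cells are usually recognised (GRCm38 chromosome 3, 87971078 to 87980451, plus strand). It was 245, 215 and 158 CPM in control replicates 1 to 3 and 94.6, 62.8, 81.5 and 81.0 CPM in Sox9-tg replicates 1 to 4. The lowest control library lay well above the highest Sox9-tg library. The log2 fold change was -1.36 (SE 0.18, adjusted p = 0.00198). Vim encodes vimentin, a filament protein that radial glia share with astrocytes and many mesenchymal cells. It stood at 401, 402 and 364 CPM in the control and 198, 297, 250 and 306 CPM in the Sox9-tg libraries, again without overlap, but missed the threshold (-0.57, SE 0.17, adjusted p = 0.0544). Vim passed in 8 of the 16 other settings. Among them were DESeq2 (adjusted p = 0.011), limma-voom (0.0489), upper-quartile factors (0.035), library totals (0.0345) and the fit without Sox9-tg replicate 1, its lowest library (0.0389). Fabp7, the brain lipid-binding protein of radial glia and their glial descendants, was 1026, 1547 and 975 CPM in the control and 1040, 1631, 1352 and 1617 CPM in the Sox9-tg libraries. The groups overlapped, with control replicate 2 the only control library within the Sox9-tg range. The log2 fold change of Fabp7 was 0.25 (SE 0.23, adjusted p = 0.53).

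Prom1 and Tspan12 encode proteins of the cell surface and moved in opposite directions. Prom1 encodes prominin (CD133), which sits on protrusions of the stem cell membrane facing the ventricle (chromosome 5, 43993620 to 44102032, minus strand). Its control values were tight, at 38.5, 36.2 and 35.3 CPM, and those of the Sox9-tg libraries were 20.9, 15.3, 20.2 and 24.6 CPM. The fall (-0.86, SE 0.16, adjusted p = 0.00841) left no overlap between groups. Tspan12, a tetraspanin that acts in Norrin and Frizzled signalling, was 39.4, 57.9 and 46.1 CPM in the control and 61.8, 75.8, 84.2 and 90.3 CPM in the Sox9-tg libraries. The highest control and the lowest Sox9-tg library were close, and the rise was modest (0.71, SE 0.17, adjusted p = 0.0278). Leaving out control replicate 1 (adjusted p = 0.107) or 3 (0.129), or Sox9-tg replicate 3 (0.0792) or 4 (0.0772), ended the call. So did summing Sox9-tg replicates 3 and 4 as 1 sample (0.0805).

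The enzyme genes also parted. Ddah1, which breaks down methylated arginines that inhibit nitric oxide synthase, was 192, 270 and 217 CPM in the control and 283, 354, 346 and 377 CPM in the Sox9-tg libraries (a log2 fold change of 0.59, SE 0.16, adjusted p = 0.0426). This call did not hold with upper-quartile factors (0.0627), library totals (0.0681) or no filter on low counts (0.0514). It was also lost without control replicate 1 (0.151) or 3 (0.18) or on removing Sox9-tg replicate 2 (0.076), 3 (0.107) or 4 (0.12). Summing Sox9-tg replicates 3 and 4 ended it too (0.114). Pla2g7, a secreted phospholipase that inactivates platelet-activating factor, did not pass (104 ± 41.2 and 63.3 ± 16.1 CPM, adjusted p = 0.131). Control replicate 2, at 149 CPM, was far above the other control libraries for Pla2g7.

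Of the 5 nuclear factors of stem cells, Pax6 fell, Hmga2 rose, and Nr2e1, Tfap2c and Hopx did not pass. Pax6, a paired-box factor of dorsal telencephalic radial glia that is also kept in some neurons (chromosome 2, 105668900 to 105697364, plus strand), was 127, 123 and 147 CPM in the control and 61.2, 51.7, 70.3 and 69.3 CPM in the Sox9-tg libraries. The Sox9-tg libraries held 39.1% to 53.1% of the control mean, and the log2 fold change was -1.07 (SE 0.13, adjusted p = 0.00159). Hmga2 encodes a chromatin protein that supports self-renewal of fetal neural stem cells and declines with age (chromosome 10, 120361275 to 120476469, minus strand). It was scarce in control, at 1.86, 2.54 and 2.01 CPM (32 to 78 counts), and 7.14, 5.09, 7.73 and 6.69 CPM in Sox9-tg libraries (102 to 137 counts). The log2 fold change was 1.63 (SE 0.25, adjusted p = 0.00409), and the groups did not overlap.

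Nr2e1, the orphan receptor TLX that maintains adult neural stem cells, was 63.2, 76.4 and 66.5 CPM in the control and 40.6, 47.6, 53.4 and 57.7 CPM in the Sox9-tg libraries. The groups did not overlap, but the difference missed the threshold (-0.46, SE 0.14, adjusted p = 0.0625). Nr2e1 passed with DESeq2 (0.0451), upper-quartile factors (0.0393), library totals (0.0472) and a filter at 1 CPM (0.0484). Tfap2c, an AP-2 factor of basal progenitor formation, was 5.52, 5.49 and 5.53 CPM in the control and 0.840, 1.80, 3.48 and 3.03 CPM in the Sox9-tg libraries. The control values were almost identical and the Sox9-tg values were widely spread. Its log2 fold change of -1.27 (SE 0.43) had an adjusted p of 0.0872, against 0.0282 with DESeq2, 0.0348 with limma-voom and 0.0498 without Sox9-tg replicate 1. Hopx, a homeodomain-only protein of outer radial glia and adult stem cells, overlapped between groups (22.5 ± 6.06 and 16.0 ± 4.70 CPM, adjusted p = 0.263).

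The remaining radial glia markers were Lix1 and Veph1. Lix1 fell from 15.3, 23.7 and 15.1 CPM to 9.29, 11.3, 11.6 and 10.5 CPM (log2 fold change -0.76, SE 0.19, adjusted p = 0.0318). Its control mean was raised by replicate 2. The call was lost without control replicate 2 (0.0819) or 3 (0.0592) or on removing Sox9-tg replicate 2 (0.0568), 3 (0.0699) or 4 (0.0901). Summing Sox9-tg replicates 3 and 4 ended it too (0.0774). Veph1, a membrane-binding protein known to dampen TGF-beta signalling, did not pass (14.5 ± 1.81 and 18.3 ± 3.49 CPM, adjusted p = 0.283).

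**Figure D2:**
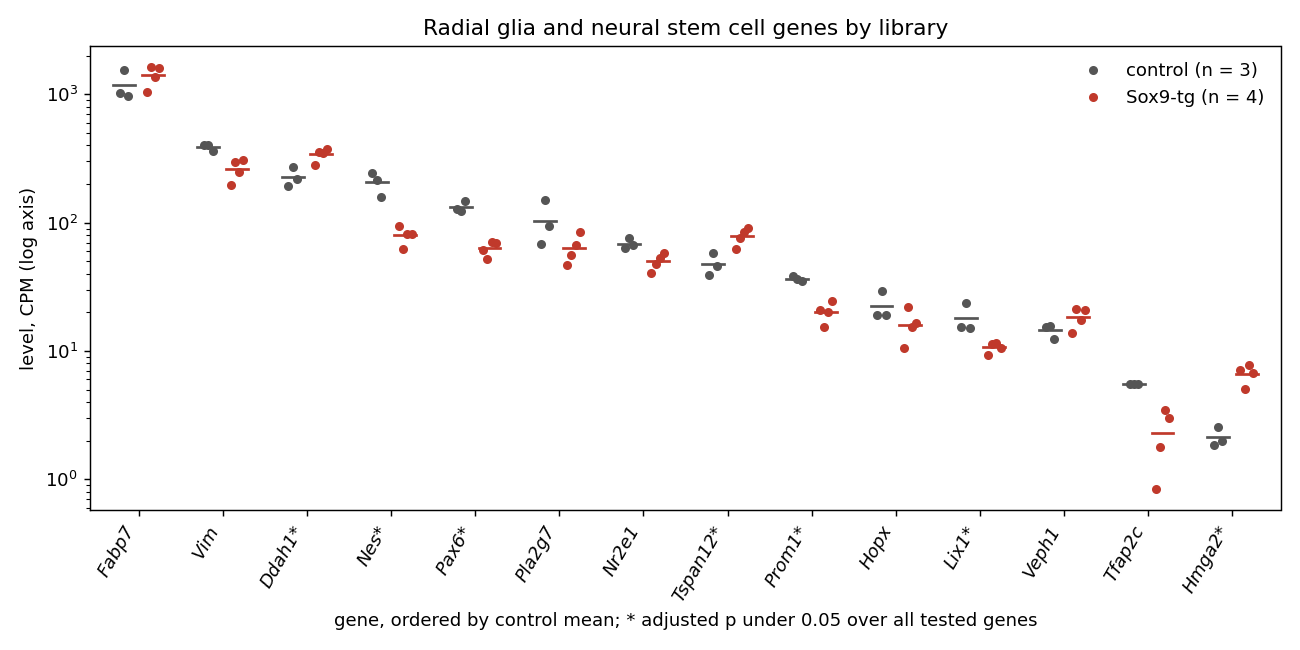
Level in CPM (log axis) of the 14 radial glia and neural stem cell genes in each library, with points for the 3 control (grey) and 4 Sox9-tg (red) libraries and a line at each group's mean, ordered by control mean. Nes, Pax6 and Prom1 lie lower in all Sox9-tg libraries, Hmga2 lies higher in all of them, and Fabp7, the most abundant, overlaps.

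The 4 factors of the dorsal telencephalon all fell. Lhx2, a LIM homeodomain factor that selects cortical identity (chromosome 2, 38339281 to 38369733, plus strand), was 148, 151 and 147 CPM in the control and 53.4, 65.9, 75.2 and 81.4 CPM in the Sox9-tg libraries. The control spread was very small beside the gap between groups, and the log2 fold change was -1.11 (SE 0.15, adjusted p = 0.00189). Dmrta2, a doublesex-related factor that acts with Emx2 in the cortical hem and hippocampal field, was 34.2, 44.1 and 44.2 CPM in the control and 16.9, 19.8, 27.1 and 26.1 CPM in the Sox9-tg libraries (-0.86, SE 0.19, adjusted p = 0.0165). Its call was lost without control replicates 2 (0.0539) or 3 (0.0907).

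Emx1 marks cortical progenitors and their neurons, and Emx2 sets the size of caudal and medial cortical areas. Emx1 was 11.0, 8.84 and 6.47 CPM in the control and 1.84, 4.59, 3.09 and 2.88 CPM in the Sox9-tg libraries (a log2 fold change of -1.498, SE 0.33, adjusted p = 0.0174). Emx2 changed less, from 30.1, 37.4 and 29.7 CPM to 20.7, 16.7, 23.0 and 21.7 CPM (-0.66, SE 0.15, adjusted p = 0.0192). For both genes all control libraries lay above all Sox9-tg libraries. The call of Emx1 was lost without control replicate 1 (0.0695) or on removing Sox9-tg replicate 3 (0.0514) or 4 (0.0541). That of Emx2 was lost without control replicate 1 (0.0579), 2 (0.0738) or 3 (0.0667) or on removing Sox9-tg replicate 4 (0.0572). Both calls were also lost with Sox9-tg replicates 3 and 4 summed (0.0513 for Emx1 and 0.0502 for Emx2). Emx2 shares 264 exon bases with the antisense gene Emx2os, which had 28 to 101 counts per library, and the use of strand in the counting is not given.

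Promoter sequences are printed for the 5 members with the largest log2 fold changes among those with a usable window, to show which of them carry letters that SOX proteins bind. Windows with over 30 bases in an annotated exon (Pou3f4 and Emx1 among the largest changes) were passed over. Each is the stretch of 250 bases before a RefSeq start site on GRCm38.p6, read 5′ to 3′ on the gene's strand. Capitals mark ACAAT or ACAAAG on either strand (written as ATTGT or CTTTGT where the match is on the other strand). Hmga2 (chr10:120476470-120476719, minus strand) rose. Msx1 (chr5:37824586-37824835, minus strand), a homeobox gene described further on, Nes (chr3:87970843-87971092, plus strand), Lhx2 (chr2:38339031-38339280, plus strand) and Pax6 (chr2:105668646-105668895, plus strand) fell.
Hmga2: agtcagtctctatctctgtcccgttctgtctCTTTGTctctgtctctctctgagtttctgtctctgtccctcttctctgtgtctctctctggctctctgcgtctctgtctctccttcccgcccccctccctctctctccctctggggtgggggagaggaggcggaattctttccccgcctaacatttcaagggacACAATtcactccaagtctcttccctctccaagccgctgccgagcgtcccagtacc
Msx1: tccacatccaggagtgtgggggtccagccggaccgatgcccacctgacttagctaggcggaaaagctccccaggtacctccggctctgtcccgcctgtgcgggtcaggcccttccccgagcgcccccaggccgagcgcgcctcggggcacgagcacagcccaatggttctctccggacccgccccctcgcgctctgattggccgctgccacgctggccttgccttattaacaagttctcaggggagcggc
Nes: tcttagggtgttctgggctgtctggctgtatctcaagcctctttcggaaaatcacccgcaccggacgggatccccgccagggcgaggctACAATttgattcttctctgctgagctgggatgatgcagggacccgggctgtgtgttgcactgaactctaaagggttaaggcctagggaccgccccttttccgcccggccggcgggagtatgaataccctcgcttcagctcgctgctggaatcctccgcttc
Lhx2: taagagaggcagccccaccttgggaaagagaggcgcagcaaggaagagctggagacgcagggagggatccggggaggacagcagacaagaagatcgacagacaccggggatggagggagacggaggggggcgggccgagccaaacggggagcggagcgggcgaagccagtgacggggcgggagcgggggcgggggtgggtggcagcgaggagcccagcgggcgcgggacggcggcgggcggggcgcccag
Pax6: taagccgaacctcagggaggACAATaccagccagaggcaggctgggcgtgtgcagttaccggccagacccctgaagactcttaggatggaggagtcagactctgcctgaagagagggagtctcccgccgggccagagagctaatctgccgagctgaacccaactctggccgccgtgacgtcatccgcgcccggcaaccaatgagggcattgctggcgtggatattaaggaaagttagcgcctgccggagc
Hmga2 held the ACAAAG letters 219 bases and ACAAT 55 bases before the start. Nes held ACAAT 161 bases and Pax6 held it 230 bases before the start. The Msx1 and Lhx2 stretches held neither, so the letters were present in the gene that rose and in some of those that fell. Over the 27 members with a window in the RefSeq table, 15 of 35 windows (42.9%) held at least 1 of the motifs, against 38.8% of all 32851 windows of the same length and 28.0% of the windows of tested genes. ACAAT was in 31.4% of the member windows, 18.5% of the windows of tested genes and 27.7% of all windows. ACAAAG was in 14.3%, 12.3% and 16.5% of these. A match is only a match of letters, and binding was not measured. Tfap2c, Otx1, Pou3f1, Zic2, En2 and Irx1 had no window.

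The POU factors of class III, which drive neural progenitors towards neuronal and glial fates and act in overlapping regions, were all lower in every Sox9-tg library than in every control library. Pou3f1 and Pou3f4 passed the test and Pou3f2 and Pou3f3 did not. Pou3f1 (Oct6 or Tst-1, also known from myelinating Schwann cells; chromosome 4, 124656807 to 124660655, plus strand) was 53.9, 32.3 and 30.7 CPM in the control and 13.6, 7.83, 11.1 and 11.8 CPM in the Sox9-tg libraries. Its log2 fold change was -1.81 (SE 0.24, adjusted p = 0.00218). Pou3f4 (Brn4; chromosome X, 110814280 to 110817207, plus strand) was 188, 99.7 and 105 CPM in the control and 60.1, 15.2, 38.3 and 39.0 CPM in the Sox9-tg libraries (-1.78, SE 0.40, adjusted p = 0.0204). Both groups spread widely for Pou3f4, and the call was lost without control replicate 1 (0.0841) or 3 (0.0532) or on removing Sox9-tg replicate 3 (0.0605) or 4 (0.057). Summing Sox9-tg replicates 3 and 4 ended it too (0.058).

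Pou3f2 (Brn2), a factor of upper-layer neurons and their progenitors, was 259, 174 and 183 CPM in the control and 166, 56.8, 112 and 103 CPM in the Sox9-tg libraries (-0.91, SE 0.31, adjusted p = 0.0941). Sox9-tg replicate 1 came close to the lowest control library, and without it the adjusted p was 0.0211. With DESeq2 it was 0.0307. Pou3f3 (Brn1), which acts with Pou3f2 in the cortex, was 885, 762 and 919 CPM in the control and 691, 457, 630 and 632 CPM in the Sox9-tg libraries (-0.50, SE 0.17, adjusted p = 0.0872, or 0.0346 with DESeq2 and 0.0471 without Sox9-tg replicate 1). Per kilobase of exon, Pou3f3 was the most abundant of the 4 in control, at 115 ± 11.1 CPM per kilobase, followed by Pou3f4 (44.7 ± 16.99), Pou3f2 (36.7 ± 8.31) and Pou3f1 (10.1 ± 3.38). Pou3f4 and Pou3f2 did not differ beyond their spread in control. In Sox9-tg libraries the order was Pou3f3 (81.3 ± 13.6), Pou3f2 (19.6 ± 8.03), Pou3f4 (13.02 ± 6.26) and Pou3f1 (2.88 ± 0.626). Pou3f2 and Pou3f4 did not differ beyond their spread there either.

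Libraries ranked alike for several of these genes. Relative to its control mean, Pou3f4 was 45.9% in Sox9-tg replicate 1 and 11.6% in Sox9-tg replicate 2, and Pou3f2 was 80.9% and 27.7% in the same libraries. Control replicate 1 held the highest Pou3f1, Pou3f2, Pou3f4 and Zic1. Across the patterning class, Sox9-tg replicate 2 was the lowest of its group for 13 of 19 genes. That library also had the lowest summed level of the 16 listed neuronal genes in its group (1799 CPM, against 2303 to 3569 CPM in the other Sox9-tg and 3029 to 4979 CPM in the control libraries). It had the lowest summed level of the 12 listed cell-cycle genes too (601 CPM, against 842 to 1119 CPM and 1619 to 2440 CPM). The part of neuronal or dividing cells in the levels of the POU and Zic genes was not tested.

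**Figure D3:**
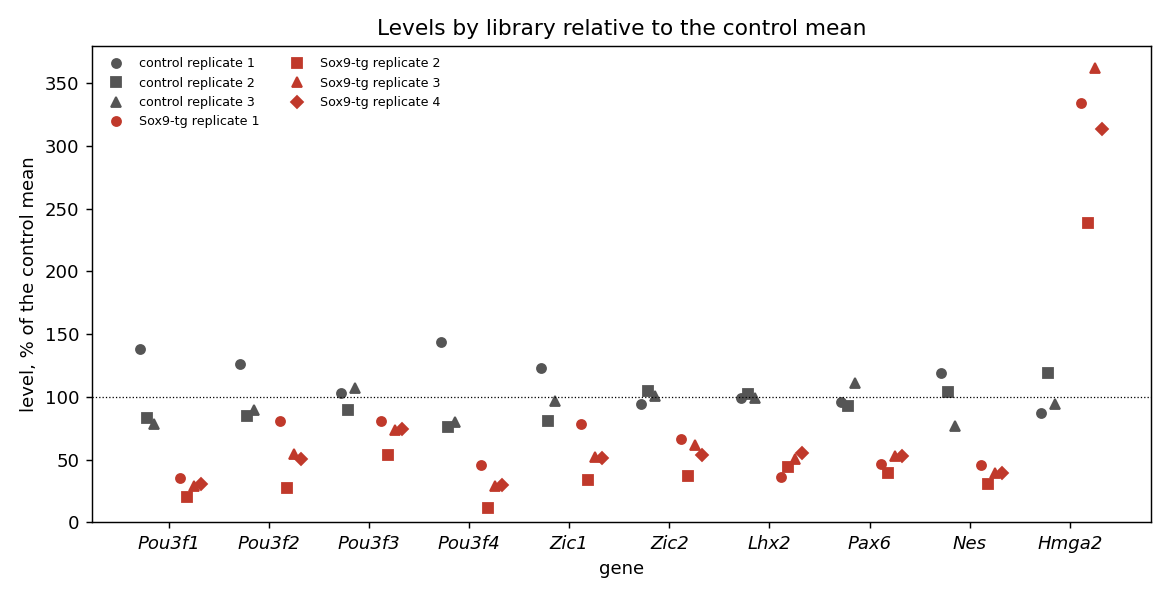
Level of 10 members in each library as a percentage of the gene's control mean (dotted line at 100), grey symbols for control and red for Sox9-tg libraries, with one symbol shape per replicate number. Sox9-tg replicate 2 (red square) is lowest for the 4 POU genes, Zic1, Zic2, Pax6 and Nes, and Hmga2 lies between 238% and 362% in the Sox9-tg libraries.

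Among dorsal midline factors, Zic2 and Msx1 fell and Zic1 lay at the threshold. Zic2, a zinc-finger factor whose loss causes failure of forebrain midline division, was 55.2, 60.8 and 58.9 CPM in the control and 38.9, 21.4, 35.9 and 31.3 CPM in the Sox9-tg libraries (a log2 fold change of -0.87, SE 0.19, adjusted p = 0.0163). The control values were close together and the groups did not overlap. The call was lost without control replicate 1 (0.0534) or 3 (0.075) or on removing Sox9-tg replicate 4 (0.0562). Zic1, a related factor of septum, cerebellum and dorsal spinal cord, was 212, 139 and 167 CPM in the control and 135, 58.9, 89.2 and 88.1 CPM in the Sox9-tg libraries (-0.90, SE 0.26, adjusted p = 0.0517). Sox9-tg replicate 1 lay just under the lowest control library. Without it the adjusted p of Zic1 was 0.00967, and Zic1 also passed with DESeq2 (0.00968), limma-voom (0.0456) and upper-quartile factors (0.0482).

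Zic4 and Zic5, which lie beside Zic1 and Zic2 in the genome, fell as well. Zic4 (21.0 ± 5.20 to 6.90 ± 2.08 CPM, -1.60, SE 0.26) and Zic5 (21.8 ± 1.48 to 9.31 ± 3.05 CPM, -1.23, SE 0.25) had adjusted p-values of 0.00466 and 0.0141, that of Zic5 being 0.0608 without control replicate 3. Zic1 and Zic4 are divergent neighbours that share 60 exon bases on opposite strands. Msx1, a homeobox gene of the roof plate and a BMP target (chromosome 5, 37820485 to 37824583, minus strand), was rare, at 1.39, 3.74 and 2.04 CPM in the control and 0.998, 0.898, 0.451 and 0.878 CPM in the Sox9-tg libraries (7 to 115 counts). Its fall (-1.56, SE 0.44, adjusted p = 0.0467) missed the threshold with limma-voom (0.0547) and with no filter on low counts (0.0717). It was also lost without control replicate 2 (0.169) or 3 (0.114) or on removing Sox9-tg replicate 2 (0.0787), 3 (0.116) or 4 (0.104). Summing Sox9-tg replicates 3 and 4 ended the call too (0.0985).

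No member among the Otx, COUP-TF, En and Irx genes passed in the reported fit. Nr2f1 (COUP-TFI), an orphan receptor that sets caudal cortical areas, came nearest, at 193, 285 and 249 CPM in the control and 161, 135, 185 and 191 CPM in the Sox9-tg libraries. Its highest Sox9-tg library was just under its lowest control library (-0.53, SE 0.17, adjusted p = 0.0815, or 0.0469 with DESeq2). Nr2f1 shares 123 exon bases with the antisense gene A830082K12Rik. Its relative Nr2f2 (COUP-TFII), of caudal ganglionic eminence and vessels, was 59.5 ± 12.9 and 47.7 ± 5.98 CPM (adjusted p = 0.251). Otx1, of deep cortical layers, was 34.5 ± 5.85 and 28.8 ± 4.68 CPM (adjusted p = 0.362). Otx2, which is needed for forebrain formation and is kept in choroid plexus, was 11.4 ± 3.74 and 7.86 ± 2.12 CPM (adjusted p = 0.259). Each of these 3 genes overlapped between groups.

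Among the midbrain and hindbrain factors, En1 and En2 were scarce, and Irx1 and Irx2 were less so. Irx1 was 9.07, 17.1 and 10.4 CPM in the control and 16.4, 13.1, 26.0 and 20.2 CPM in the Sox9-tg libraries (0.62, SE 0.29, adjusted p = 0.202), and Irx2 was 6.01 ± 2.71 and 5.82 ± 0.552 CPM (adjusted p = 0.94). En1 was 0.631 ± 0.143 and 0.664 ± 0.288 CPM, on 8 to 22 counts per library. En2 was 0.349, 1.40 and 0.388 CPM in the control and 1.16, 1.80, 1.93 and 1.90 CPM in the Sox9-tg libraries (1.22, SE 0.53, adjusted p = 0.183). Control replicate 2 was the only control library within the Sox9-tg range of En2, and without it the log2 fold change was 2.18 (adjusted p = 0.0231). En2 exceeded the low-count limit of 0.481 CPM in 1 control and 4 Sox9-tg libraries, so it entered the test through the Sox9-tg group. These engrailed factors mark the midbrain-hindbrain boundary, and the Iroquois factors divide the tissue behind and in front of it.

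**Figure D4:**
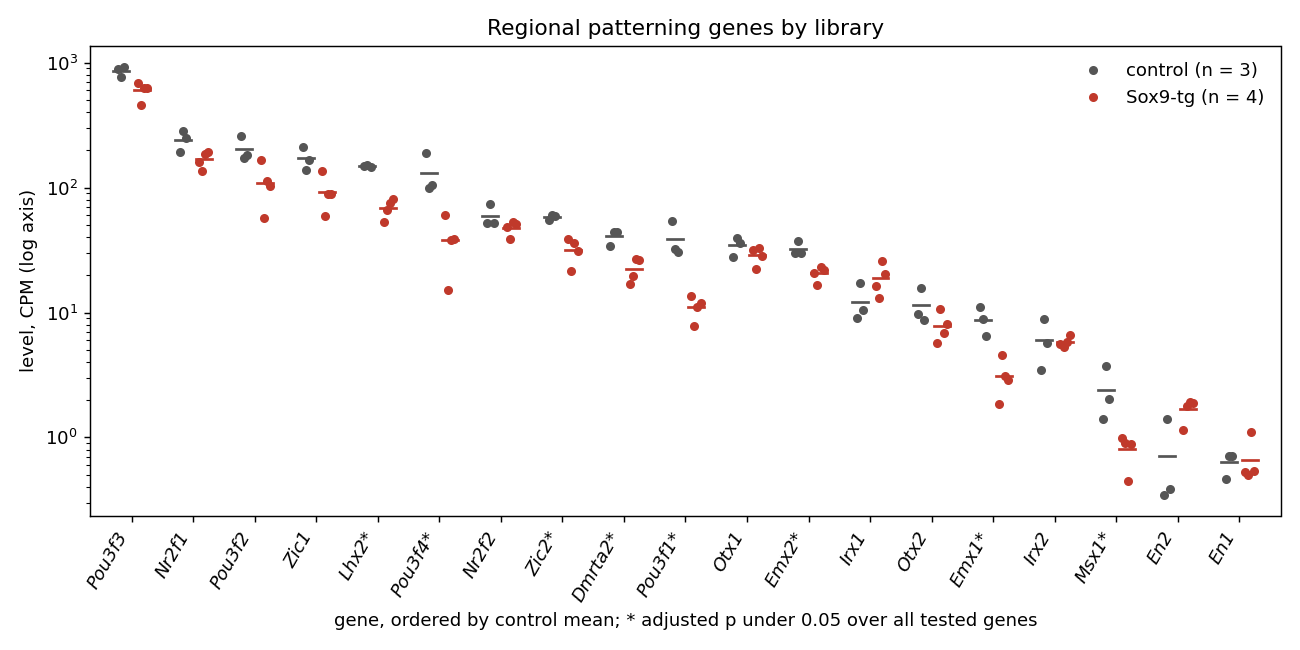
Level in CPM (log axis) of the 19 regional patterning genes in each library, with points for the 3 control (grey) and 4 Sox9-tg (red) libraries and a line at each group's mean, ordered by control mean. Of the 12 genes without overlap between groups all lie lower in Sox9-tg libraries, and the En and Irx genes overlap.

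The classes were then set side by side, as a description with no test. The median log2 fold change was -0.53 over the radial glia class and -0.66 over the patterning class, against -0.01 over all tested genes. Log2 fold changes were below 0 for 9 of 14 radial glia and 16 of 19 patterning members, against 51.4% of all tested genes. Groups did not overlap for 10 of 14 and 12 of 19 members (24.5% of all tested genes). The patterning genes summed to 1957 to 2173 CPM in the control and 953 to 1468 CPM in Sox9-tg libraries, without overlap. Pou3f3, which did not pass, leads that sum, at 762 to 919 and 457 to 691 CPM. The radial glia genes summed to 2158 to 2952 and 1888 to 2764 CPM, with overlap, a sum that Fabp7 leads. Per kilobase of exon, Fabp7 was the most abundant member in control (946 ± 253 CPM per kilobase) and in Sox9-tg libraries (1128 ± 222). Ddah1 stood at rank 4 in control and rank 2 in Sox9-tg libraries, at 56.8 ± 10.02 and 85.3 ± 10.1 CPM per kilobase. In Sox9-tg libraries Ddah1 did not differ from Pou3f3 (81.3 ± 13.6) beyond their spread.

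Other genes of the stem cell programme changed in both directions. Of 46 further neural stem cell and radial glia genes, 45 were tested, and their median log2 fold change was -0.32. Of these 6 rose (13.3%) and 8 fell (17.8%), against 7.69% and 5.86% of all tested genes. The lowest p-values were those of Egfr and Gli3, which fell, and of Moxd1 and Ednrb, which rose. Moxd1, a monooxygenase homologue, was 6.61 ± 1.78 CPM in the control and 52.0 ± 11.4 CPM in Sox9-tg libraries (2.96, SE 0.25, adjusted p = 0.000276). Ednrb, the endothelin receptor of glial progenitors and neural crest, was 622 ± 99.6 and 1756 ± 249 CPM (1.497, SE 0.18, adjusted p = 0.00142). Beside Hmga2, further genes of fetal stem cells were looked up after the values had been seen. The RNA-binding protein gene Igf2bp2 rose (10.5 ± 2.59 to 21.3 ± 2.42 CPM, 1.02, SE 0.19, adjusted p = 0.00938) and its relative Igf2bp1 fell (11.9 ± 2.96 to 4.89 ± 1.41 CPM, -1.29, SE 0.27, adjusted p = 0.0145). The call of Igf2bp1 was lost without control replicates 1 (0.0626) or 3 (0.0516). Igf2bp3 (0.37) and Hmga1 (-0.04), with log2 fold changes as given, did not pass. Lin28b, at 0.933 ± 0.140 and 0.353 ± 0.221 CPM on 1 to 30 counts per library, did not pass either.

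Among 29 other patterning genes of the forebrain, 26 were tested, and their median log2 fold change was -0.79. Of these 6 fell (23.1%), against 5.86% of all tested genes, and 2 rose. The share that rose (7.69%) was the same as that over all tested genes (7.69%). The genes that rose were Dmrta1 and Gsx1, each with a close relative that fell. Dmrta1 was 6.16, 4.91 and 4.37 CPM in the control and 22.4, 20.7, 26.4 and 25.8 CPM in the Sox9-tg libraries (2.22, SE 0.18, adjusted p = 0.000236), where Dmrta2 fell by 0.86 on the log2 scale. Gsx1 rose from 15.3 ± 0.940 to 53.3 ± 12.3 CPM (1.80, SE 0.19), while Gsx2 fell from 17.4 ± 2.15 to 4.92 ± 1.23 CPM (-1.82, SE 0.23). Both Gsx genes are homeobox factors of the lateral ganglionic eminence.

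Of 33 further genes of the dorsal midline, midbrain and hindbrain 15 were tested, with a median of -0.78. Of these 5 fell (33.3%), Zic4 and Zic5 among them, and 1 rose (Pax7, 6.67%). Over all tested genes the shares were 5.86% and 7.69%. Rspo1, Barhl2 and Pax7 were rare, at 1.40 ± 0.812, 2.34 ± 0.916 and 0.302 ± 0.244 CPM in the control and 0.174 ± 0.0621, 0.871 ± 0.144 and 1.26 ± 0.468 CPM in Sox9-tg libraries. Rspo1 entered the test through the control group, where it had 16 to 72 counts, and it had 2 to 5 counts in each Sox9-tg library, so no fold is given for it. Pax7 entered through the Sox9-tg group, since it exceeded the low-count limit in 1 control and 4 Sox9-tg libraries. Barhl2 lost its call without any of control replicates 1 (0.0987), 2 (0.134) and 3 (0.0505) or Sox9-tg replicates 2 (0.055), 3 (0.101) and 4 (0.0868). Pax7 lost its call without control replicate 2 (0.125) or 3 (0.182) or on removing Sox9-tg replicate 2 (0.0783), 3 (0.0645) or 4 (0.0729). Both calls were also lost with Sox9-tg replicates 3 and 4 summed (0.0908 for Barhl2 and 0.0711 for Pax7). No fold is given for Pax7 either, as it had only 4 to 10 counts in each control library.

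Of 12 listed factors of the ventral neural tube 8 were tested, with a median of 0.82. Of these 3 rose (37.5%) and 1 fell (12.5%), against 7.69% and 5.86% of all tested genes. Those that rose were Olig1, Olig2 and Nkx2-2, which specify oligodendrocyte progenitors there, and Dbx2, of intermediate progenitors, fell from 32.4 ± 8.72 to 14.2 ± 4.30 CPM (-1.19, SE 0.27). Olig1 and Olig2 also stand in the list of NG2 glia markers. Nkx2-2 rose from 31.3 ± 11.3 to 111 ± 43.3 CPM (1.82, SE 0.38). The call was lost without control replicate 3 for Olig1 (0.059), Olig2 (0.0605), Nkx2-2 (0.0681) and Dbx2 (0.077), without control replicate 1 for Nkx2-2 (0.0531) and without control replicate 2 for Dbx2 (0.0734).

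Several of the members are also expressed by other cells, so the levels of marker genes are given beside them. For comparison with the counts below, 5.86% of all tested genes fell and 7.69% rose. Of 16 neuronal markers 9 fell and none rose, and their sum was 3029 to 4979 CPM in the control and 1799 to 3569 CPM in Sox9-tg libraries. Of 9 astrocyte markers other than Sox9, 4 fell and 1 rose, summing to 2249 to 4055 and 1540 to 2302 CPM. Of 12 cell-cycle genes 11 fell. None of 11 microglial markers passed, and none of the 5 tested among 8 endothelial markers. Summed over all listed genes, these lists held 121 to 846 and 7.02 to 138 CPM in the control and 63.7 to 360 and 10.9 to 32.8 CPM in Sox9-tg libraries. Ependymal and choroid plexus markers (11 listed, 8 tested, 1 higher and 1 lower) summed to 22.8 to 120 and 32.8 to 72.7 CPM, and meningeal and mural markers (12 listed, 10 tested, 1 higher) to 37.8 to 129 and 30.3 to 64.3 CPM. The higher gene of the last list, Lum, entered the test through the Sox9-tg group. It had 0 to 10 counts in control and 26 to 138 counts in Sox9-tg libraries, so its call says little. No gene of these marker lists was at 0 in every library, though Emcn and Slco1a4 (endothelial), Folr1 and Tmem212 (choroid plexus and ependymal) and Lum and Col3a1 (fibroblast) were at 0 in at least 1. Control replicate 2 had the highest sum of the microglial, endothelial, astrocyte, ependymal and meningeal lists, and it was the highest control library for 22 of the 33 members. The part of these cell types in the changes of the members was not tested.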

How the data were processed

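For each of the 7 libraries, 3 control and 4 Sox9-tg, the deposited file holds raw counts of reads by gene, with Ensembl ID and gene name. The submitters' processing notes list GRCm38 and the tools STAR 2.5.2b, Trimmomatic 0.36, featureCounts, Subread 1.5.2, DESeq and DESeq2. Settings, annotation release and strand handling were not given in the sources used here. Exon bases are shared on opposite strands for 12 members, and whether reads of those stretches were kept apart by strand is not known.

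Groups and replicate numbers came from the sample titles. Genes with low counts were removed with filterByExpr (minimum count 10, minimum total 15), which left 16616 genes. Libraries were scaled by TMM, and CPM were computed on the scaled totals. A count of 3 corresponded to 0.097 to 0.193 CPM. Groups were compared by the two-sided quasi-likelihood F test of edgeR 4.0.16 under R 4.3.3, in a model holding only the group, and p-values were adjusted by Benjamini-Hochberg over all tested genes. The SE is the log2 fold change divided by the square root of F. Coordinates and exon lengths came from GENCODE M21 (GRCm38), and promoter sequences from RefSeq (GRCm38.p6).

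Members and lists were chosen with earlier results of these data known. Named genes were all members, Sox9, the called genes with the 4 smallest p-values of each other list and list members where no more than 5 were called in a direction, and some of these are not reported here by name. Igf2bp1, Igf2bp2, Igf2bp3, Lin28b and Hmga1 were named after their values were seen. A microglial gene whose name stood on 2 rows was left out of its list. Bcl11b, planned for the list of other forebrain patterning genes, is not among the genes counted there either. Alternatives were DESeq2 1.42.0, limma-voom (limma 3.58.1), other scaling and filters, each library left out, the replicate number as a block and, added after seeing the data, Sox9-tg replicates 3 and 4 summed. The test was tried on simulated counts.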

Additional observations from a re-analysis of the deposited data

Results flagged for a closer look

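En1 in Sox9-tg replicate 3 stood apart from the rest of its group, at 1.09 CPM against 0.499 to 0.537 CPM in the other 3 Sox9-tg libraries. The value rests on 17 counts. The limit used for such gaps is passed by chance in about 1 of 20 groups, and 33 members and Sox9 were looked at.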

How the results depend on the processing

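The direction of the median log2 fold change of both classes was below 0 under all 16 other settings. With DESeq2, 7 radial glia members fell in place of 4, 12 patterning members fell in place of 8, and 2976 genes were called in place of 2251. The DESeq2 total is over 18891 genes in place of 16616, of which 6.88% fell in place of 5.86%. With 1 library left out, the number of called genes lay between 965 and 3169 (575 to 1785 higher, 390 to 1384 lower), and 1 to 3 radial glia members rose, 3 to 6 fell, 0 to 1 patterning members rose (En2, without control replicate 2) and 3 to 11 fell. With Sox9-tg replicates 3 and 4 summed, an alternative chosen after seeing the data, 1358 genes were called (843 higher, 515 lower), 1 radial glia member rose and 4 patterning members fell. Fits with a library left out or 2 summed hold fewer samples, and the cause of the difference under DESeq2 was not tested. Same-numbered control and Sox9-tg libraries deviated together with r = 0.317, 0.613 and 0.0703 for numbers 1, 2 and 3. Control replicates 1 and 2 correlated best with the Sox9-tg library of the same number, and control replicate 3 with Sox9-tg replicate 1 (0.14). The labels name no pairs, and the numbers were not taken as pairs in the reported fit. Whether libraries of the same number share a preparation was not tested. With the replicate number as a block, 1509 genes fell in place of 973, and 9 radial glia and 11 patterning members fell. That fit treats same-numbered libraries as pairs. Sox9-tg replicate 4 has no control of its number, so it adds nothing to the group difference there. Of the 15 called members 9 lost the call in at least 1 setting, and 10 of the 18 others gained one. Depth limits En1, En2 and Msx1, which had fewer than 10 counts in at least 1 library.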
